A study of Mus musculus with 12 samples.

Results

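The transcriptome of the unaltered adult mouse heart was described from the 3 nontransgenic hearts among the 12 heart samples of a study on mutations in Mybpc3 and Hrc. These were all the samples titled Non transgenic, with the genotype given as C57BL/WT. Hearts 1 and 2 came from males and heart 3 from a female, all taken at 6 months of age. The other groups, which were not compared here, were mice homozygous for the deletion MYBPC3Δ25bp, mice heterozygous for HRCS96A, and mice with both, 3 per group. RNA was taken from the heart with no chamber named in the labels, and mRNA was enriched with oligo(dT) beads. Each library has 1 sex and 1 age in the labels, which do not say whether animals were pooled.

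The heart is a muscle that contracts without rest, and its cells are filled by sarcomeres, in which myosin thick filaments pull on actin thin filaments. Calcium released from the sarcoplasmic reticulum starts each contraction through troponin, and the pump encoded by Atp2a2 returns it. Mitochondria supply nearly all of the ATP, mostly from fatty acids, and many sarcomere and mitochondrial proteins exist as isoforms made by separate genes, with one form in the working ventricle and others in the atria, the fetal heart or skeletal muscle.

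The libraries held 18862077, 18756363 and 20581196 counts in hearts 1 to 3. Levels are given as CPM, counts scaled to a library total of 1000000, which follow the number of reads, or as TPM, the deposited values that are also scaled by transcript length. Levels of different genes were compared in TPM, and ranks and shares by counts say only how many reads a gene took. Of 17379 genes in the table, 12098 reached 1 CPM in all 3 hearts, 14212 had at least 1 read in each heart and 1131 had none in any. A level of 100 CPM was reached in all 3 hearts by 1448 genes and a level of 1000 CPM by 87. Genes of the mitochondrial genome were not analysed here, so every share is a share of nuclear mRNA.

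The label was checked against heart muscle markers, and all 12 of 12 were present at 1 CPM or more in every heart. Of 20 skeletal muscle isoforms in the table, 5 reached 1 CPM in all 3 hearts, led by Mybpc2 at 25.1, 22.02 and 47.2 CPM, and 3, Myh2, Myh3 and Myog, stayed under 1 read in each library. The libraries were not alike in every respect. Heart 1 stood apart from the others by transcript length, heart 2 carried more RNA of atrial and fat cell genes, and heart 3 held reads of another pair of beta-globin genes. The values are given below beside the results they touch.

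A small number of genes held much of the RNA. The number of genes that together held 50% of all counts was 327 in heart 1, 497 in heart 2 and 472 in heart 3, a mean of 432 ± 91.8 (SD, n = 3). On the TPM scale it was 123, 191 and 191 genes. The 10 most abundant genes of each heart held 13.5%, 11.1% and 11.8% of its counts, and 90% of counts were spread over 4444, 5085 and 4863 genes. Heart 1 was the most concentrated of the 3 on both scales, while hearts 2 and 3 lay close together.

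**Figure D1:**
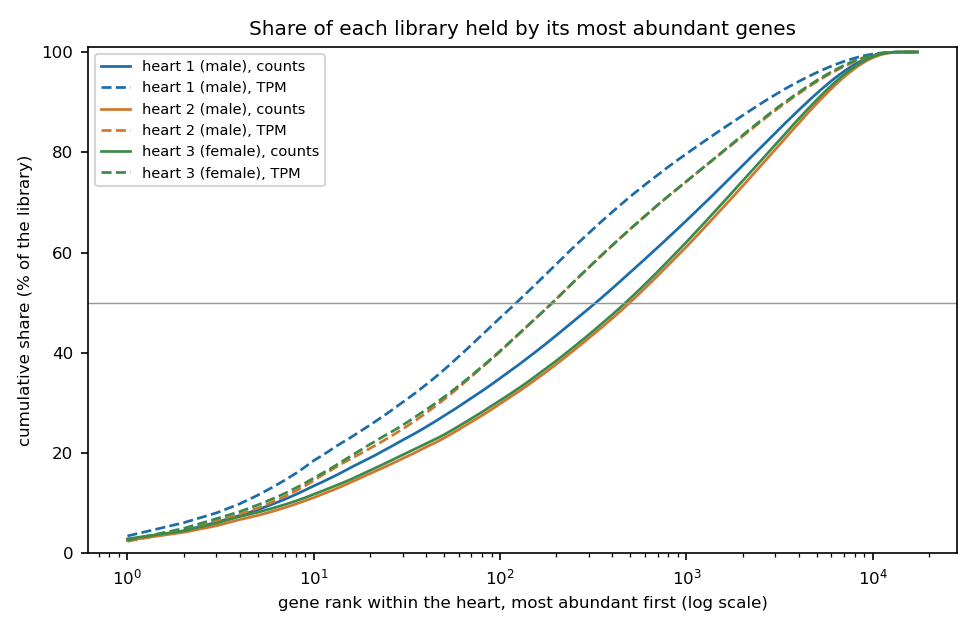
Cumulative share of each library (y axis, %) against gene rank (x axis, log scale), for counts (solid lines) and TPM (dashed lines) in the 3 hearts. The curve of heart 1 lies above those of hearts 2 and 3, and crosses 50% at 327 genes for counts and at 123 for TPM.

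Ranked by mean TPM, the first place went to Myl2, the ventricular regulatory light chain of myosin. Its TPM was 34730 in heart 1, 24084 in heart 2 and 26426 in heart 3. Mb, which encodes the oxygen store myoglobin, followed with 26404, 21109 and 23293 TPM. The cardiac actin gene Actc1 had 19549, 19011 and 19423 TPM, so that the 3 hearts differed by little. Next came Tnni3 (cardiac troponin I), Cox6a2 (a muscle subunit of cytochrome c oxidase), Tpm1 (tropomyosin), Myl3 (the ventricular essential light chain), Tnnt2 (cardiac troponin T), Gapdh and Fabp3 (the heart fatty acid binding protein), with means from 15195 down to 10935 TPM. Of the 10 highest genes of each heart on this scale, 9 were shared by all 3, and of the 30 highest, 24 were.

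**Figure D2:**
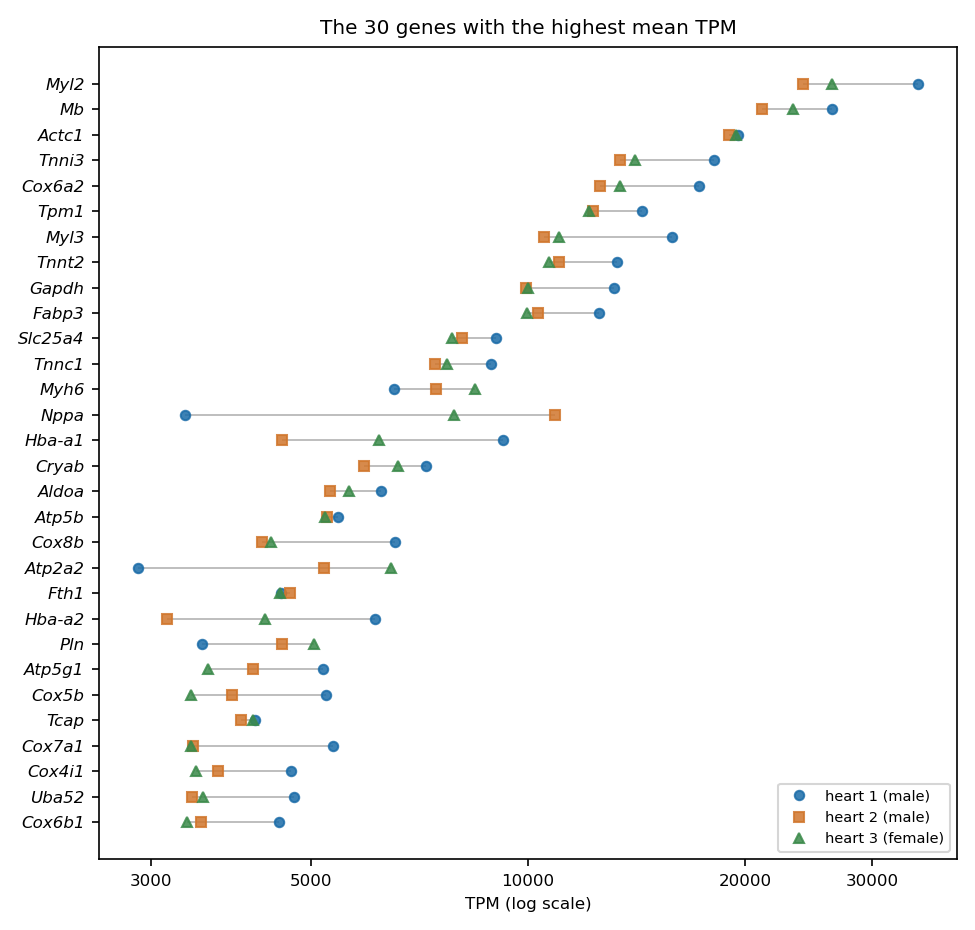
TPM (x axis, log scale) of the 30 genes with the highest mean TPM, one symbol per heart, with a line from the lowest to the highest heart. In 25 of the 30 genes heart 1 is the highest, and Nppa and Atp2a2 show wide gaps with heart 1 as the lowest. Of all 8940 genes with a mean of at least 10 CPM, 1025 are highest in heart 1 by TPM.

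By number of reads the order was different, because long transcripts give more reads. Myh6, the main myosin heavy chain of the adult mouse heart, came first by counts with 26394, 26318 and 29023 CPM, and had rank 13 by TPM. Titin (Ttn), the giant spring protein of the sarcomere, had rank 27 by counts and rank 2067 by TPM. The 2 sets of 30 genes shared 19 members. Of the 30 genes with the most counts, 13 belonged to the thick and thin filaments and the Z-disc, 3 to the oxygen store and creatine shuttle and 3 to the respiratory chain.

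The calcium pump gene Atp2a2 had rank 4 by counts, and its hearts did not lie close together. It had 8308 CPM in heart 1, 13111 in heart 2 and 15768 in heart 3, a coefficient of variation (SD over mean, CV) of 30.5%. Phospholamban (Pln), which holds that pump back, varied less, with 5479, 6150 and 6624 CPM. Nppa, the atrial natriuretic peptide, had 1803, 5075 and 3587 CPM, again with heart 1 the lowest. The 2 genes that the study altered in other mice were Mybpc3, a thick filament protein, at 1564, 1510 and 1541 TPM, and Hrc, a calcium-binding protein of the sarcoplasmic reticulum, at 763, 698 and 791 TPM.

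Reads were then added up by function over 33 gene lists, with each gene counted once. Together the lists held 1216 genes and 50.1% of counts (SD 3.22, n = 3), or 63.8% of TPM, and the other 16163 genes held the rest. The 49 genes of the thick and thin filaments and the Z-disc formed the largest share, with 14.0%, 11.5% and 12.0% of counts in hearts 1 to 3 and a mean of 12.5% ± 1.34. The 88 nuclear genes of the respiratory chain and ATP synthase held 7.90%, 6.02% and 5.60% of counts. On the TPM scale they drew level with the sarcomere, at 14.4% against 14.6%, since their transcripts are short, with a median of 732 bases.

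Fuel pathways each held about the same share of reads. Fatty acid uptake and oxidation held 3.14% ± 0.167 of counts. Lpl (lipoprotein lipase) took the most reads of that list, while in TPM Fabp3 stood higher, at 10935 against 2724 for the longer Lpl. Glucose uptake, glycolysis and glycogen held 3.08% ± 0.431, of which Gapdh alone made up 28.6% and Aldoa (aldolase A) 16.5%. The citric acid cycle with ketone and amino acid oxidation held 3.05% ± 0.0759, the steadiest of the 3 between hearts. Ogdh, an enzyme of that cycle with the most counts in the list, had a CV of 7.48%, and Cs (citrate synthase) had 1701, 1734 and 1729 CPM.

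The oxygen store, creatine and adenine nucleotide shuttle held 3.16% ± 0.521 of counts, with Mb at 44.9% of the list and Slc25a4, the ATP and ADP exchanger of the inner mitochondrial membrane, at 16.9%. Calcium cycling and the triad held 2.33%, 2.99% and 3.32%, with heart 1 the lowest, and Atp2a2 made up 43.0% of it. The 85 cytosolic ribosomal proteins held 2.52% of counts and 6.19% of TPM. Chaperones held 1.78%, and there the small heat shock genes Hspb7 and Hspb6 made up 23.9% and 15.8%. The small heat shock gene Cryab was counted with the filaments and the Z-disc instead. Its mean of 6579 TPM lay above the 2584 of Hspb7 and the 3613 of Hspb6. Extracellular matrix genes held 1.14%, led by the proteoglycan gene Dcn, and 43 transcription factors together held 0.461%.

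**Figure D3:**
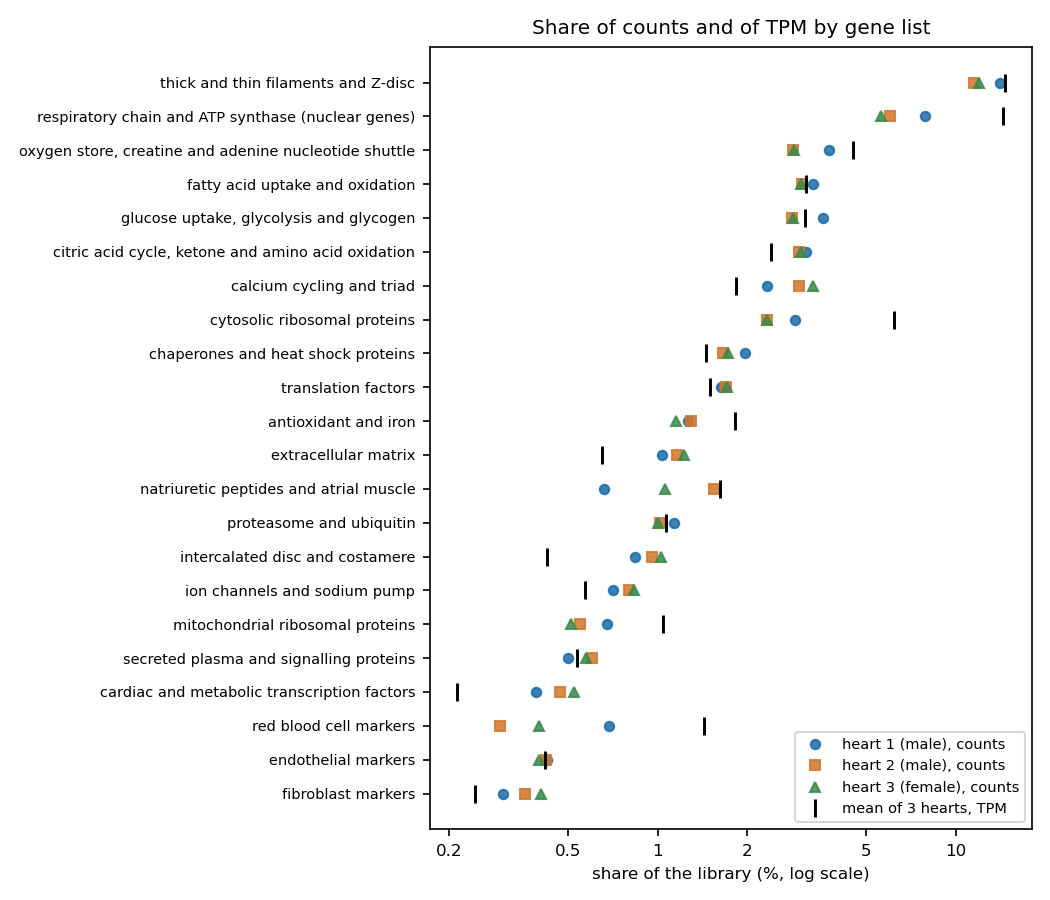
Share of the library (x axis, %, log scale) for the 22 gene lists with the largest mean share of counts, with one symbol per heart for counts and a black bar for the mean share of TPM. The respiratory chain moves from 6.51% of counts to 14.4% of TPM, and the atrial list is spread from 0.658% in heart 1 to 1.54% in heart 2.

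Within complexes whose subunits assemble in fixed numbers, transcript levels still spanned a wide range. Complex I, which takes electrons from NADH, had a median of 943, 782 and 757 TPM over 39 genes. The means of the 37 with at least 1 TPM in every heart ran from 193 for Ndufs4 to 2493 for Ndufa3. The ATP synthase lay higher, with medians of 2795, 2388 and 2278 TPM over 15 genes, from 989 for Atp5f1 to 5311 for Atp5b. The 4 genes of complex II, succinate dehydrogenase, had medians of 700, 780 and 820 TPM. In cytochrome c oxidase the summed TPM was 55781, 43398 and 41956, and Cox6a2 was the highest member at 14411.

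The CCT chaperonin, a folding machine for actin and tubulin, was the most even of the 10 complexes examined. Of its 9 subunits, 8 had at least 1 TPM in every heart. Their means lay between 73.6 TPM for Cct8 and 138 TPM for Tcp1, with an SD of 0.32 on the log2 scale across genes. The small ribosomal subunit was uneven, with an SD of 1.58 and a lowest member, Rps6, at 13.4 TPM. Ribosomal protein genes have many processed copies in the genome, among which reads can be split, so the low members are uncertain.

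Sarcomere transcripts were set against Myh6 in TPM. Actc1 had 3.00, 2.55 and 2.30 times the TPM of Myh6, Tnnc1 (cardiac troponin C) 1.36, 0.997 and 0.913 times, and Mybpc3 0.240, 0.203 and 0.183 times. Both ventricular light chains stood higher in heart 1. Myl2 was at 5.33 times against 3.24 and 3.13 in hearts 2 and 3, and Myl3 at 2.43 times against 1.41 and 1.31. So did other short transcripts, with Tnni3 at 2.78, 1.80 and 1.67 times and Tnnt2 at 2.04, 1.48 and 1.27 times. Myh6 is longer, at 6113 bases against 662 for Myl2, and heart 1 differed from the others by transcript length. The part of length in these ratios was not tested. Hspb7, a small heat shock protein of the sarcomere, kept the ratios 0.346, 0.343 and 0.348. The long transcript of Ttn was at the low end, at 0.00780 on average.

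Among 69 gene families, 1 member held over 90% of the family's TPM in all 3 hearts in 24, and from 50 to 90% in another 29. The same member led in all 3 hearts in 67 of the 69. The exceptions were the calcium channel pores and the translation elongation factor pair. Among the pores Cacna1c led in hearts 1 and 3, and in heart 2 Cacna1h had 26.76 TPM against 26.24 for Cacna1c. By counts Cacna1c led in heart 2 as well, with 3907 against 2421. In the elongation factor pair Eef1a2 led in heart 1 and Eef1a1 in hearts 2 and 3.

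**Figure D4:**
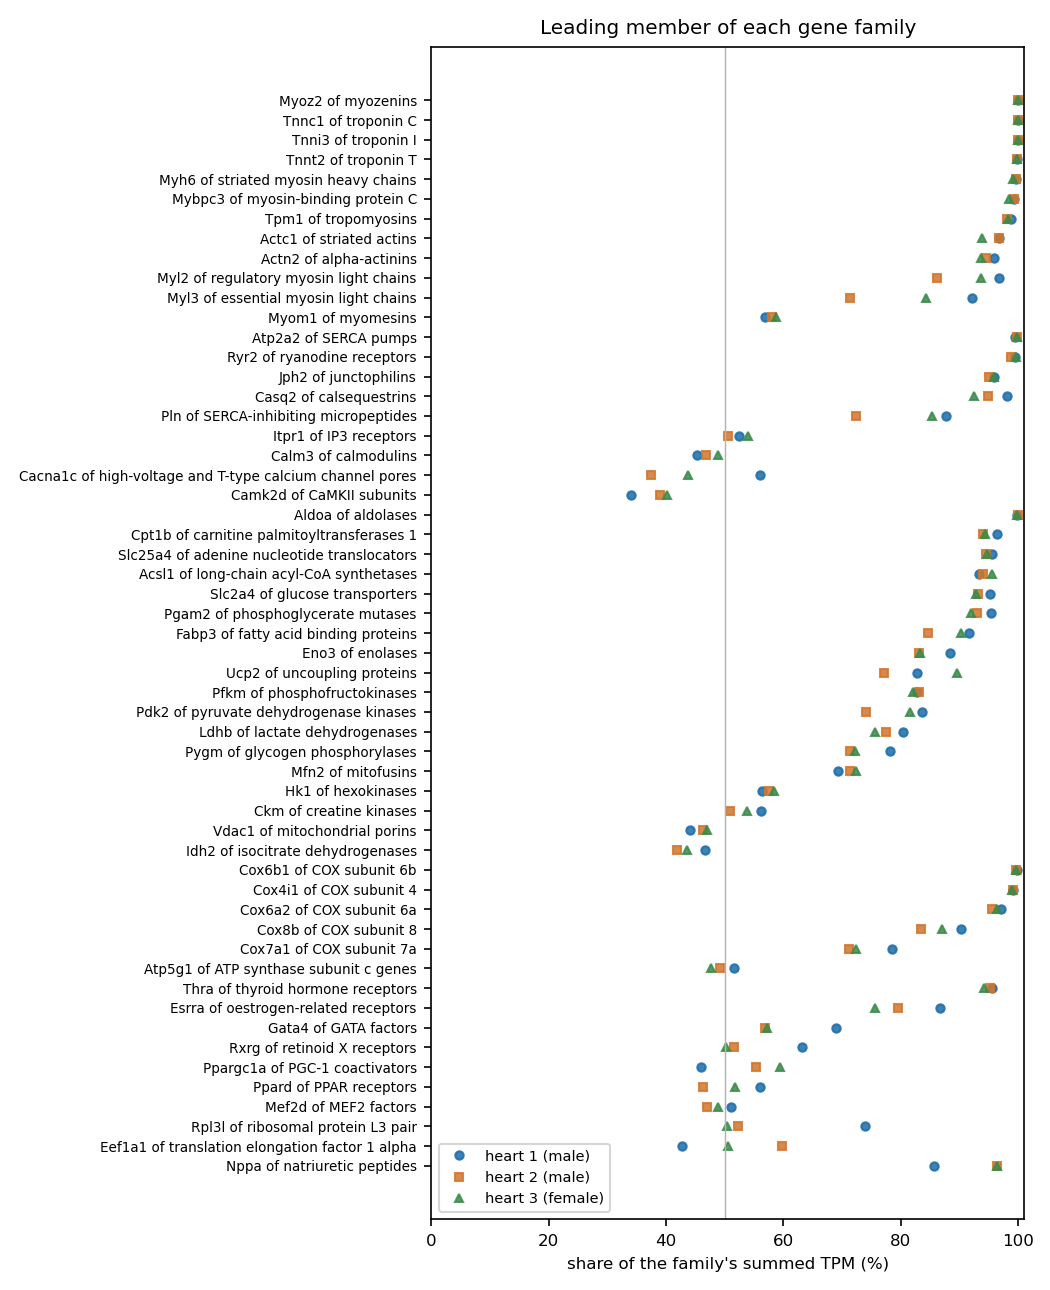
Share of the family's summed TPM (x axis, %) held by the leading member of 55 families, one symbol per heart, in blocks that run from contractile families at the top to natriuretic peptides at the bottom. Most contractile leaders lie at the right edge in all 3 hearts, while Myl3, Pln, Cacna1c and Rpl3l are spread.

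The myosin heavy chains were a case of a single dominant member. Myh6 and Myh7, the fast and slow cardiac forms, lie next to each other on chromosome 14, at chr14:54941921-54968017 and chr14:54970684-54994626 on the minus strand (RefSeq, GRCm38.p6). Myh6 held 99.7%, 99.7% and 99.0% of the family's TPM. Myh7, which leads in the fetal mouse ventricle, had 15.63 and 17.98 TPM in the male hearts and 71.15 TPM in the female heart, or 0.239%, 0.241% and 0.835%. With 1 female, sex and individual cannot be told apart. Myh7b, a further myosin gene of the heart, had 7.13, 6.48 and 10.1 TPM.

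These 3 genes each carry a microRNA inside the gene on the same strand, shown here because the host transcripts are the ones ranked above. Their mature sequences, from RefSeq, lie at chr14:54949072-54949093 in Myh6, chr14:54975710-54975731 in Myh7 and chr2:155622893-155622913 in Myh7b. Capitals mark the seed, bases 2 to 8.
miR-208a-3p: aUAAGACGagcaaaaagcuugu
miR-208b-3p: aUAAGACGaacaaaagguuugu
miR-499-5p: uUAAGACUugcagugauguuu
The miR-208 pair shares its seed, and miR-499-5p has another. The microRNAs themselves were not measured, since the table types every gene as mRNA.

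In the striated actins, Actc1 held 96.8%, 96.7% and 93.8% of TPM. The skeletal form Acta1 had 566, 489 and 952 TPM, and the smooth muscle form Acta2 had 88.3, 164 and 330 TPM, so both were highest in heart 3. The coding sequences of these genes are close copies, so their reads can be shared out wrongly. Troponins were nearly pure, with Tnni3, Tnnt2 and Tnnc1 above 99.8% of their families in each heart. Mybpc3 held over 98.5% in each heart and the Z-disc gene Myoz2 over 99.9%.

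The light chains were mixed, and the mixture differed between hearts. The atrial regulatory light chain Myl7 had 1186, 3846 and 1799 TPM against Myl2 above it, and made up 3.30%, 13.8% and 6.37% of the pair. The atrial essential light chain Myl4 had 1160, 3672 and 1790 TPM, or 6.75%, 24.9% and 13.7% of its family. Sarcolipin (Sln), which like phospholamban acts on the calcium pump and is an atrial transcript in the mouse, had 493, 1736 and 871 TPM. All 3 were highest in heart 2 and lowest in heart 1. In bulk RNA, more cells of a type and more RNA per cell cannot be told apart.

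Natriuretic peptides showed a related order with one difference. Nppa had 3342, 10880 and 7903 TPM, while Nppb had 562, 405 and 302 TPM and was highest where Nppa was lowest. Nppa made up 85.6%, 96.4% and 96.3% of the family. Over the 20 genes of the 21 in the atrial and natriuretic list with a mean of at least 10 CPM, 16 were highest in heart 2 and 1 in heart 1, whereas among all 8940 genes at that level 3619 were highest in heart 2 and 2200 in heart 1. Bmp10, a growth factor of atrial muscle, had 0.848, 269 and 203 CPM. Whether the dissections held equal amounts of atrium was not tested.

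Promoter windows of 3 pairs are shown because the members of each pair differ so widely in level: Myh6 with Myh7, Actc1 with Acta1, and Nppa with Nppb. Each is the first window RefSeq lists for the gene, from 250 bases before the start to 50 bases after it, on GRCm38.p6. They lie at chr14:54966558-54966857, chr14:54994577-54994876, chr2:114052826-114053125 and chr8:123894726-123895025 on the minus strand, and at chr4:148000472-148000771 and chr4:147985650-147985949 on the plus strand. Capitals mark matches, on either strand, to TATAAA, to the GATA letters AGATAA, to the M-CAT letters GGAATG, or to the CArG box.
Myh6: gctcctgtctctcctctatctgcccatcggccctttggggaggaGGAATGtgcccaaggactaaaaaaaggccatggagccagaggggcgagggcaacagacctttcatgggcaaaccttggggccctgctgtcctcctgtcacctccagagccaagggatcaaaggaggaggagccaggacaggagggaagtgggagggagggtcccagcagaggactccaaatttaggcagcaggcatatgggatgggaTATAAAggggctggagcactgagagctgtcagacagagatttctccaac
Myh7: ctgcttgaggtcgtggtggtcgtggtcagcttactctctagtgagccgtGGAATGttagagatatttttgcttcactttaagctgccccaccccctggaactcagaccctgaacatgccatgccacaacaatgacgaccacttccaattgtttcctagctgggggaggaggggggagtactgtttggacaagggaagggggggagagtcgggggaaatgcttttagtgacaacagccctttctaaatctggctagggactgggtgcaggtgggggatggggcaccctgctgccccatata
Actc1: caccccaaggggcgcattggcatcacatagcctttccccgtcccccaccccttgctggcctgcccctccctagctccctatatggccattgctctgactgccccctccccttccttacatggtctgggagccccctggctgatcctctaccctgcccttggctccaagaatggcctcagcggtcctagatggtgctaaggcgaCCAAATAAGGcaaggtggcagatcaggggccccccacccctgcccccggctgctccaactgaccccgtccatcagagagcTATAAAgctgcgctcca
Acta1: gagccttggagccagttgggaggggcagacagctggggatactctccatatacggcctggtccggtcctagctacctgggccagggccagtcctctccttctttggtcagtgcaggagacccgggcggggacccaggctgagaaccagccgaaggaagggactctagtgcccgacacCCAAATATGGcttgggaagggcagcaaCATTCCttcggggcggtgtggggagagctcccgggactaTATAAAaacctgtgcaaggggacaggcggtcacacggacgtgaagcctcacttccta
Nppa: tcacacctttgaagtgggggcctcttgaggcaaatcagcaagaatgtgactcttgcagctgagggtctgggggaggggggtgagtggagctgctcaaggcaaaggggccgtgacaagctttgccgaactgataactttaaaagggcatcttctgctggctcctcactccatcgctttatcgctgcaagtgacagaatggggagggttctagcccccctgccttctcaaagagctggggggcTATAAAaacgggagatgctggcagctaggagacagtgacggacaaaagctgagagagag
Nppb: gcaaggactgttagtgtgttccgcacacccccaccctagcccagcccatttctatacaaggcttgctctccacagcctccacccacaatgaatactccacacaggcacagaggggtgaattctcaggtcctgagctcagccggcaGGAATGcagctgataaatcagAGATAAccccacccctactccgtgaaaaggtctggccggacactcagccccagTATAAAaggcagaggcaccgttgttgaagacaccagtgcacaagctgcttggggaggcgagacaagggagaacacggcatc
TATAAA was found in 5 of the 6 windows, all but that of Myh7, and the CArG box in both actin windows. The Myh7 window ends in the letters tata, and a match that runs past its edge would not be counted. In Myh6 and Actc1 the TATAAA match lay after the annotated start.

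The same motifs were counted in the first window of other genes, of which 24 of the 30 with the highest TPM and 9649 of the 12098 detected genes had one. TATAAA was present in 6 of the 24, or 25.0%, in 6.85% of detected genes and in 14.2% of all 27025 windows. On the plus strand and 40 to 15 bases before the start, it was present in 0 of the 24, in 1.10% of detected genes and in 2.22% of all windows. GGAATG was present anywhere in the window in 20.8%, 11.9% and 14.6%, AGATAA in 20.8%, 6.04% and 11.4%, and the CArG box in 8.33%, 1.33% and 1.57%. The MEF2 site, which can overlap TATAAA, was in 0 of the 24, in 1.79% and in 3.26%. These are matches of letters in a window of 300 bases and no measure of binding.

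Muscle forms also led in the respiratory chain. Cox6a2 held 97.0%, 95.5% and 96.4% over Cox6a1, the form of most other tissues. Cox8b held 90.3%, 83.4% and 87.0% over Cox8a, and Cox7a1 held 78.5%, 71.1% and 72.4% over Cox7a2 and Cox7a2l. In each of these families the share of the muscle form was highest in heart 1 and lowest in heart 2. The ATP synthase subunit c, which is made from several genes that encode one mature protein, was divided, with Atp5g1 at 51.7%, 49.1% and 47.6%.

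For glucose metabolism, Slc2a4, the insulin-responsive transporter, held 95.2%, 93.2% and 92.9% of its family, with Slc2a1 at 11.5, 22.4 and 28.9 TPM. Lactate dehydrogenase was mostly the heart form Ldhb, with 80.3%, 77.4% and 75.6%. Muscle forms led in phosphoglycerate mutase (Pgam2 over 92.0% in each heart), enolase (Eno3 88.5%, 83.0% and 83.3%) and glycogen phosphorylase (Pygm 78.2%, 71.4% and 72.3%). The hexokinases were split, with Hk1 at 99.5, 123 and 165 TPM above Hk2, the form of insulin-responsive muscle, at 59.0, 75.5 and 94.5 TPM.

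In fatty acid oxidation, Cpt1b, the muscle form of the gate enzyme for entry into mitochondria, held 96.4%, 94.1% and 94.3%, and Acsl1 over 93.3% in each heart. Creatine kinase was shared between the cytosolic Ckm, with 56.2%, 50.8% and 53.8%, and the mitochondrial Ckmt2, with 43.0%, 47.8% and 44.7%. The brain form Ckb stayed at 70.3 to 87.8 TPM. Ucp1, the uncoupling protein of brown fat, had 0.05, 67.03 and 6.40 TPM, and its shares of the uncoupling proteins were 0.0284%, 13.9% and 1.73%.

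Among calcium genes, Atp2a2, Ryr2, the release channel, and Jph2, which ties the membranes of the dyad together, held over 99.5%, 98.8% and 94.9% of their families in each heart. Casq2, the calcium store protein, held 98.1%, 94.9% and 92.5%. Camk2d, taken as the main cardiac CaM kinase, held only 34.0%, 38.9% and 40.1%, with Camk2a, known from neurons, at 31.4, 47.0 and 47.8 TPM.

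The ribosomal protein pair differed by heart. Rpl3l, the muscle form of Rpl3, had 537, 352 and 339 TPM, and Rpl3 had 189, 322 and 333 TPM, so that Rpl3l held 74.0%, 52.2% and 50.4%. Hearts 2 and 3 were close to even and heart 1 was not. In the elongation factor pair, Eef1a2, the form of muscle and nerve, had 1747, 1536 and 1768 TPM and Eef1a1, the general form, 1301, 2273 and 1807 TPM. Heart 1 was thus the highest in the muscle form of one pair and the lowest in the general form of both.

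Transcription factors were expressed far below the sarcomere genes. Of the listed transcription factors, the 10 with the highest mean TPM were Nfe2l1, Nkx2-5, Epas1, Esrra, Srf, Rxrg, Thra, Gata4, Hand2 and Mef2d, from 234 down to 75.4 TPM. Nkx2-5, the homeobox factor of heart muscle, had 251, 208 and 217 TPM. Esrra, an orphan receptor that acts on mitochondrial genes, had 140, 138 and 147 TPM, and Gata4 had 75.2, 82.8 and 92.8 TPM. Thra held 95.6%, 95.1% and 94.1% of the thyroid hormone receptors. The PPAR receptors were mixed, with Ppard at 33.3, 37.2 and 42.3 TPM above Ppara, which acts on fatty acid oxidation, at 12.6, 19.9 and 27.6 TPM.

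The spread between the 3 hearts was larger than counting error. Over 8940 genes with a mean of at least 10 CPM, the median CV was 14.9%, against 3.72% for the counting of reads alone, which covers no other error. The 10th and 90th percentiles were 5.25% and 29.8%. It changed little with level, from 16.8% at 10 to 30 CPM to 12.5% at 300 to 1000 CPM, and was 16.6% above 1000 CPM. The common biological coefficient of variation by edgeR was 22.5% over 12674 genes. No test was applied to differences between single hearts, since 3 hearts allow no smaller p than 0.25 in an exact sign-flip test.

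Heart 1 lay farthest from the mean of the 3 for 59.1% of the 8940 genes, against 19.6% for heart 2 and 21.2% for heart 3. Without heart 1 the median CV was 7.18%, and without heart 2 it was 15.7%. Changes over 2-fold separated heart 1 from heart 2 in 304 of 8892 genes with a known length and from heart 3 in 282, whereas hearts 2 and 3, a male and a female, differed that much in 75. CPM also placed the median gene of heart 1 at -0.12 on the log2(CPM + 1) scale relative to the mean of the hearts, and TMM scaling, edgeR's trimmed-mean method, moved it to 0.01.

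The deviation of heart 1 followed transcript length. In genes under 1 kb its median deviation from the mean of the hearts was 0.25 on the log2(CPM + 1) scale, and it went down class by class to -0.33 in genes over 8 kb. Hearts 2 and 3 went from -0.07 and -0.18 up to 0.16 and 0.18. Across 8892 genes, which are not independent replicates, Spearman's rho between length and the log2 difference was 0.51 for heart 2 minus heart 1, 0.56 for heart 3 minus heart 1 and 0.14 for heart 3 minus heart 2. Genes under 1 kb held 15.5%, 11.5% and 10.8% of counts.

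**Figure D5:**
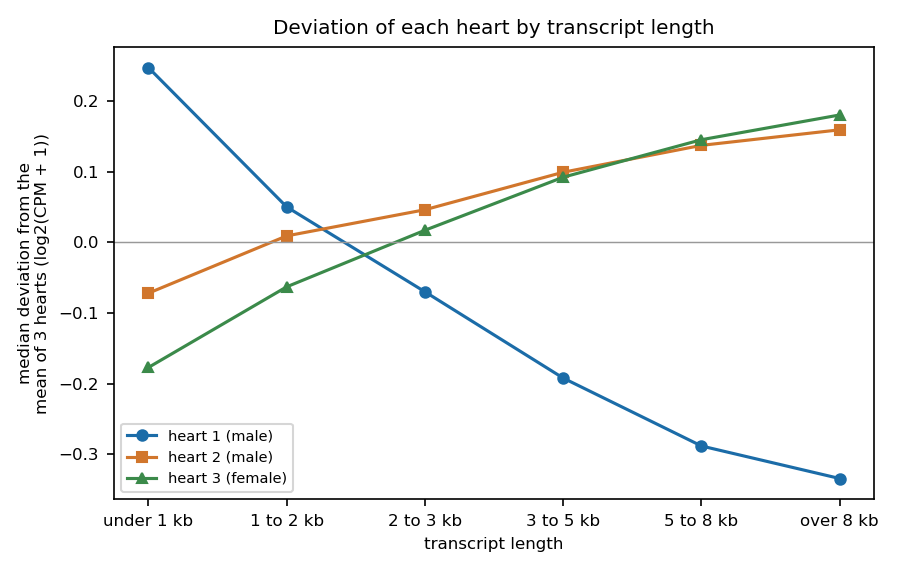
Median deviation of each heart from the mean of the 3 hearts (y axis, log2(CPM + 1)) in 6 classes of transcript length (x axis), over 8892 genes with a mean of at least 10 CPM. Heart 1 falls from 0.25 to -0.33 while hearts 2 and 3 rise.

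Function lists of short transcripts moved with this trend. Of the 85 respiratory chain genes at 10 CPM or more, 79 were highest in heart 1, and of 82 cytosolic ribosomal protein genes 75 were, against 24.6% of all genes. When the length trend was removed, these counts were 53 and 21, or 62.4% and 25.6%, against 27.9% of all genes. The ribosomal proteins were then near the share of all genes and the respiratory chain was not. The trend was estimated with the genes of these lists included, and only 494 genes at that level were under 1 kb. Their own deviation thus entered the correction, and its part in the lower counts was not tested. The share of the respiratory chain became 6.98%, 6.35% and 6.09%, and that of cytosolic ribosomal proteins 2.48%, 2.48% and 2.59%. Among lists of long transcripts, extracellular matrix genes went from 11 of 61 highest in heart 1 to 25 of 61. The count hardly moved in calcium cycling genes, with 6 and then 5 of 38, and in ion channels, with 6 of 37 both times. In intercalated disc genes it was 8 and then 10 of 41. The median log2 difference of heart 1 from hearts 2 and 3 shrank in each of these lists. It went from -0.299 to -0.139, from -0.434 to -0.222 and from -0.401 to -0.19, and over all genes from -0.186 to -0.1. The labels name 1 purity criterion that every RNA had to meet and no value per library, and the part of RNA quality in the trend was not tested.

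Other differences remained after this adjustment. Of 29 immediate early genes, the fast transcriptional response to stimulation, 17 reached 10 CPM. By CPM 16 of them, or 94.1%, were highest in heart 1, and 15, or 88.2%, with the length trend removed. Among all 8940 genes at that level these shares were 24.6% and 27.9%. The sizes differed, and Rhob, with the most counts in the list, had 218, 189 and 212 CPM. Klf2 had 171, 63.99 and 93.9 TPM and the orphan receptor Nr4a1 46.1, 7.31 and 7.72 TPM. The inducible heat shock genes were also highest there, with Hspa1a at 133, 2.85 and 5.43 CPM and Hspa1b, its near-identical neighbour, at 117, 2.09 and 1.70 CPM. Their partner Dnajb1 and the related Dnaja1 were among the 100 most variable genes as well, with Dnaja1 at 121, 53.3 and 40.6 CPM.

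Of the 100 genes with the highest CV, 60 were highest in heart 2, 17 in heart 1 and 23 in heart 3. Among all 8940 genes at 10 CPM or more, 3619, 2200 and 3121 were highest in hearts 2, 1 and 3. Fat genes led in heart 2. The summed level of the 14 fat cell markers was 197, 2030 and 404 CPM, and all 12 that passed 10 CPM, a filter that high values in 1 heart can meet alone, were highest in heart 2. Adipoq (adiponectin) had 0.636, 58.4 and 5.83 CPM, Plin1, which coats fat droplets, had 0 counts in heart 1 and 30.3 and 2.96 CPM in the others, and Cfd, a protease secreted by fat cells, had 3.76, 283 and 54.3 CPM. Cyp2e1 followed the same order with 4.93, 181 and 20.0 CPM.

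The summed markers listed for lymphocytes, mesothelium and nerve were also highest in heart 2, at lower levels. The 17 B and T cell markers in the table summed to 33.8, 101.8 and 35.1 CPM. Of these, the B cell gene Cd79a had 2.33, 18.3 and 1.94 CPM. Thy1, with 42.6% of the list's counts, had 21.1, 25.3 and 26.3 CPM, and the T cell gene Cd4 2.23, 1.97 and 1.85 CPM. Jchain, the joining chain of antibodies made by plasma cells, had 0.689, 44.5 and 0.243 CPM. Mesothelium markers summed to 75.7, 184 and 95.6 CPM and Schwann cell and nerve markers to 235, 443 and 328 CPM. In the last of these lists 48.6% of counts came from Chrm2, a muscarinic receptor that heart muscle also makes, with 98.8, 215 and 175 CPM. Endothelial markers, 29 of 29 at 1 CPM or more in every heart, differed little, with sums of 4303, 4283 and 4088 CPM. Macrophage markers summed to 770, 962 and 697 CPM. Of their 18 genes at 10 CPM or more, 14 were highest in heart 2, or 17 with the length trend removed. Among all 8940 genes at that level these counts were 3619 and 3670. The part of tissue makeup in the spread was not tested.

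Of 14 smooth muscle and pericyte genes at 10 CPM or more, 10 were highest in heart 3, the female heart, 3 in heart 1 and 1 in heart 2, while of all 8940 genes 3121 were highest in heart 3. With the length trend removed, 9 were highest in heart 3 and 5 in heart 1. Acta2 had 150, 239 and 472 CPM, and Tagln (transgelin) had 35.3, 66.3 and 149 CPM. Cnn1 and Lmod1, 2 further contractile genes of smooth muscle, were also among the 100 most variable genes with heart 3 the highest. Rgs5, a marker of pericytes, had a CV of 2.68%, and Smtn (smoothelin) was highest in heart 1, with 206, 169 and 190 CPM, so the list did not move as a whole. Zbtb16, a transcription factor gene, had 50.2, 47.8 and 135 CPM.

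The order was another one in red cell genes. Hba-a1 had 3095, 1314 and 1748 CPM, and the red cell markers summed to 6846, 2954 and 3983 CPM, with heart 1 the highest. Beta-globin was of one kind in hearts 1 and 2 and of both kinds in heart 3. Hbb-bs and Hbb-bt, the pair carried by the C57BL/6 reference genome, had 25929 and 4132 counts in heart 1, while Hbb-b1 and Hbb-b2, the pair of another beta-globin haplotype, made up 0.093% and 0.014% of beta-globin counts in hearts 1 and 2 and 49.3% in heart 3. Hbb-b1 alone had 1.43, 0.0906 and 423 CPM and was the most variable gene above 50 CPM. These genes are near-identical copies, so single counts are uncertain. Rnaset2b was listed at 0 counts in heart 1 and at 33.6 and 77.9 CPM in hearts 2 and 3.

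Differences of at least 20-fold between hearts were few. A level of 5 CPM or more in 1 heart with at most a 20th of it in another was found for 46 genes. Of these, 39 were highest in heart 2, 4 in heart 3 and 3 in heart 1. Among all 8940 genes with a mean of at least 10 CPM, 3619, 3121 and 2200 were highest in hearts 2, 3 and 1. The rule does not require a level near 0, and the lowest heart of Car3, a carbonic anhydrase of fat and muscle, still had 8.01 CPM. Among the 46 were 4 genes of the Y chromosome, Uty, Kdm5d, Eif2s3y and Ddx3y, all with 0 counts in the female heart.

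At the other end, the 8 steadiest genes above 50 CPM, on the CPM scale, were Fxr2, Gnai2, Mcrip1, Psmc2, Ilk, Cdk4, Maea and Sorbs3. Gnai2, an inhibitory G protein subunit, had 574, 570 and 572 CPM, and Ilk, a kinase at the costamere, had 114, 115 and 114 CPM. Their CVs, from 0.252% to 0.694%, lay below the counting error of 0.949% to 2.90%, so they cannot be ranked among themselves. Among the most abundant genes, Atp5a1, a subunit of ATP synthase, was the steadiest of the 30 with the most counts, at 4498, 4347 and 4374 CPM and a CV of 1.82%. Gapdh, often used as a reference gene, had 11383, 7573 and 7462 CPM and a CV of 25.4%. All of these CVs are of CPM without TMM scaling. The TMM factors were 0.9104, 1.0651 and 1.0313 in hearts 1 to 3, so genes level in CPM are not level after that scaling. Which genes are steadiest on that scale was not examined.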

How the data were processed

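Per the labels' protocols, total RNA from each heart was bound to oligo(dT) beads to enrich mRNA, and libraries were read as DNA nanoballs. The authors deposited 1 table with an expected count and a TPM value per gene and sample. In the 3 hearts, 94.35% of the deposited counts were whole numbers. HISAT, Bowtie2, DESeq2 and the build GRCm38.p6 are named in the submitters' processing notes, without their roles. For the counter and the annotation, the name is not given in the sources used. Of 17380 lines, 1 held no values. Symbols turned into dates were restored for 25 genes. The deposited type field reads mRNA for every gene, also for Snhg11, which is listed here as noncoding.

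CPM was computed from the library totals, which ranged from 18756363 to 20581196 counts, and TPM was used as deposited. Counts were rounded for edgeR 4.0.16 (TMM scaling, minimum count of 10) and for DESeq2 1.42.0 size factors. The dispersion step was tested on simulated data. Transcript lengths, for 16688 genes, were the longest GENCODE M21 transcript matched through RefSeq. Gene spans, strands, promoters and microRNAs came from RefSeq tables (GRCm38.p6), in which 17267 identifiers matched. The table's own strand column matched RefSeq in 84.84% of genes and was not used. The length trend was removed in 20 bins of equal size.

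Families were compared by each member's share of the family's TPM. Family lists and the 33 function lists were chosen with earlier results of these data known. Named genes were the 30 highest by mean CPM and by mean TPM, the described family members, the leading genes of each list, the 10 listed transcription factors with the highest TPM, and the genes with the highest or lowest CV. No groups were compared and no test across genes was run. The labels do not say that the samples are separate animals, so the spread may be partly technical.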

Additional observations from a re-analysis of the deposited data

How the results depend on the processing

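The number of detected genes was 12098, 14212 with at least 1 read in each heart and 11451 with a TPM of at least 1. The number of genes for 50% of counts averaged 432 and was 168.3 in TPM. It ranged from 399.5 to 484.5 when 1 heart was left out. The sarcomere share of 12.5% became 14.6% in TPM and 5.32% without the 10 most abundant genes, and ranged from 11.7% to 12.98% when 1 heart was left out. With the length trend removed, an alternative chosen after seeing the data, it was 12.5%. The Myh6 share of 99.5% ranged from 99.3% to 99.7% over 5 alternatives. The median CV of 14.9% ranged from 7.18% without heart 1 to 15.7% without heart 2, and was 11.7% with the length trend removed and 19.1% over all genes with at least 1 read in each heart. The common coefficient of variation of 22.5% ranged from 17.1% without heart 1 to 24.9% without heart 3, and was 27.8% without the filter on low counts. Myh6 at 27245 CPM was 27281 with TMM scaling and 7467 in TPM, and ranged from 26356 to 27708 CPM when 1 heart was left out. On the TPM scale 24 of 33 function shares moved by more than 1 SD, and 36 of 40 other named genes did so because TPM is another unit; none of those 40 moved with TMM scaling. Family shares from counts without length scaling moved for 35 of 68 other leaders. The table types every gene as mRNA, so restricting it by that field gave no other value. No paired analysis was possible because only 1 group was described and no result came from a test between groups.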

Other observations

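Genes that no function list holds were examined for their most abundant members, which were chosen after their values were seen. Crip2, a LIM domain protein gene, had 2481, 1711 and 1825 CPM in hearts 1 to 3. Chchd10, a small mitochondrial protein gene, had 2547, 1688 and 1678 CPM and a mean of 3434 TPM. Pde4dip, also called myomegalin, had 1433, 1714 and 2355 CPM and Tns1 (tensin, an actin-binding protein) 992, 1313 and 1561 CPM, and both were highest in heart 3. Gnas, Psap, Ndrg2 and Ctsd were steady in CPM, with CVs from 4.97% to 6.17%.

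The beta-globin kinds were also read in the 9 other libraries. The pair Hbb-b1 and Hbb-b2 made up 1.21%, 0.375% and 0.031% of beta-globin counts in the MYBPC3Δ25bp hearts, 99.1%, 49.5% and 48.3% in the HRCS96A hearts and 49.7%, 48.3% and 0.335% in the hearts with both. The values thus fell near 0, near 50% or near 100%. Rnaset2b had 0.00 CPM in heart 1 and in HRCS96A heart 2, 0.448 CPM in HRCS96A heart 3, and from 31.8 to 84.4 CPM in the others. What sets these values was not tested.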
